A study of Homo sapiens with 3 samples.

Results

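In all, 10 transcriptional and splicing regulators of the epithelial state were followed across drug-resistant populations of HCC827 cells. They were 5 inducers of epithelial-mesenchymal transition (ZEB1, ZEB2, SNAI1, SNAI2 and TWIST1) and 5 factors of epithelial cells that act against it (ESRP1, ESRP2, GRHL2, OVOL1 and ELF3). The 10 genes were chosen by name, with earlier results of these data known. Each stands on 1 row among the 30866 gene symbols of the table. HCC827 is an established line from a human lung adenocarcinoma whose EGFR gene carries an activating mutation, and all 3 populations came from 1 polyclonal pool carrying the ClonTracer DNA barcode library. The dual-resistant population had spent a further 10 days in 2 µM erlotinib, which blocks the EGF receptor kinase, with 0.2 µM crizotinib, which blocks MET. It was drawn from the erlotinib-resistant population, which had been kept in 2 µM erlotinib for 47 days. The vehicle population was given 0.1% DMSO for 4 days. Each population was sequenced as 1 RNA library, so no value has a replicate error, no difference has a test, and drug, time and selection cannot be told apart.

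In epithelial cells, ZEB and SNAI proteins are zinc-finger repressors and TWIST1 is a basic helix-loop-helix factor. They bind E-box sequences at genes such as CDH1, which encodes the adhesion protein E-cadherin, and shut them down as cells become mesenchymal. ESRP1 and ESRP2 are RNA-binding proteins that hold transcripts such as those of CD44 and FGFR2 in their epithelial splice forms. GRHL2 is a Grainyhead-family activator of junction genes, OVOL1 a zinc-finger repressor of ZEB1 described in epithelia, and ELF3 an ETS-family factor restricted to epithelia. ZEB1 and ZEB2 messages are in turn held down by microRNAs of the miR-200 family.

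The epithelial regulators and the ZEB genes differed in opposite directions in dual-resistant cells. ESRP1, ESRP2, GRHL2, OVOL1 and ELF3 were all lower there, by 2.98-fold to 17.7-fold against erlotinib-resistant cells, and ZEB1 and ZEB2 were higher. Between the erlotinib-resistant and vehicle libraries SNAI2 was 6.33-fold higher after erlotinib, and the other 9 genes differed by at most 1.36-fold on the FPKM + 1 scale, which shrinks differences of low genes. As plain ratios ZEB2, ZEB1 and TWIST1 were 4.60-fold, 2.76-fold and 2.25-fold higher there, on at most 90 estimated fragments, and with a pseudocount of 0.1 FPKM ZEB2 passed the limit used here (1.06). SNAI1 was lowest in dual-resistant cells, in which SNAI2 was highest. Folds here are ratios of FPKM + 1, where FPKM is the deposited unit, fragments scaled to transcript length and to the mapped total. A gene was called higher or lower at a log2 difference of 1 (2-fold) or more, by size alone. In bulk RNA, fewer cells of a kind and less RNA per cell cannot be told apart.

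The miR-200 family falls into a pair of seed groups, shown here because their matches recur in the ZEB messages. Capitals mark the seed, bases 2 to 8 of each mature microRNA, with sequences from RefSeq (GRCh38.p14).
hsa-miR-200b-3p: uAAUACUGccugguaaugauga
hsa-miR-200c-3p: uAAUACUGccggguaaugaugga
hsa-miR-429: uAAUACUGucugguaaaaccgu
hsa-miR-200a-3p: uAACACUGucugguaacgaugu
hsa-miR-141-3p: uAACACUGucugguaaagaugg
The first 3 share the seed AAUACUG, matched in a message by CAGTATT, and the other two share AACACUG, matched by CAGTGTT. In the longest annotated 3′ UTR of each gene (GENCODE 29, GRCh38), ZEB1 held 6 CAGTATT and 3 CAGTGTT in 2549 bases, and ZEB2 held 5 and 4 in 5370 bases. Only the given strand was searched, and 9 or more matches in all were held by 6 of 18945 genes (0.0317%), ZEB1 and ZEB2 among them. Among UTRs of 0.8 to 1.25 times the same length, the median was 0 matches for 2558 genes like ZEB1 in length and 1 match for 1173 genes like ZEB2. Of the other members, ESRP1 held 2 matches, SNAI2 and GRHL2 1 each, and SNAI1, TWIST1, ESRP2, OVOL1 and ELF3 none. The first CAGTATT after the stop codon of each ZEB message follows, in capitals within 22 bases.
ZEB1 3′ UTR site: gttttatcttatCAGTATTatc
ZEB2 3′ UTR site: actaccatacatCAGTATTttt
The 6 rows of the table for miR-200 and miR-205 hairpins (MIR200A, MIR200B, MIR200C, MIR141, MIR429 and MIR205) were listed at 0 in all 3 libraries, so no level of a mature microRNA can be given. MIR205HG, the host transcript of miR-205, stood at 0.140 FPKM in dual-resistant cells, 0.704 in erlotinib-resistant cells and 14.1 in vehicle cells. It was the only compared gene of that list, and it reached 1 FPKM in vehicle cells alone.

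Promoter windows from RefSeq (GRCh38.p14; 250 bases before a start and 50 from it) were given for 3 members, ZEB1, ZEB2 and ELF3. They are shown for the E-box CAGGTG, the sequence that ZEB and SNAI factors bind, searched on both strands (CAGGTG or CACCTG). ELF3 has 1 such E-box, whose first base is at -120 from the start. ZEB1 has 7 annotated starts, of which 2 windows hold E-boxes, 4 in all, and the ZEB2 window holds none. For scale, 20.6% of 35116 windows of this length hold CAGGTG. The site of Grainyhead factors, searched as AACNGGTT on both strands, is in 1.73% of windows and in none of these 9. Capitals mark the E-boxes of ELF3 and of the 2 ZEB1 windows.
ELF3 chr1:202010337-202010636, plus strand: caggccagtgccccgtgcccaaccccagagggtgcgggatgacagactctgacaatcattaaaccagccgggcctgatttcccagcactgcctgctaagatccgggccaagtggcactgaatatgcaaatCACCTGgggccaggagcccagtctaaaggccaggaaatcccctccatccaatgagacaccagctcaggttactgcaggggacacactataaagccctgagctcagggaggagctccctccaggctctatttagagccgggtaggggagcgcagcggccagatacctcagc
ZEB1 chr10:31318167-31318466, plus strand: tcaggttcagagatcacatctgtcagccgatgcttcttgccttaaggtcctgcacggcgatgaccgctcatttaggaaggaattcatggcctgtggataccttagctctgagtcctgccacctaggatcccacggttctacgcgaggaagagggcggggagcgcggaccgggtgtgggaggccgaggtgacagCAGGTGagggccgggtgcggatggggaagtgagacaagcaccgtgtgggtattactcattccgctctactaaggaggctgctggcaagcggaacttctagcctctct
ZEB1 chr10:31318966-31319265, plus strand: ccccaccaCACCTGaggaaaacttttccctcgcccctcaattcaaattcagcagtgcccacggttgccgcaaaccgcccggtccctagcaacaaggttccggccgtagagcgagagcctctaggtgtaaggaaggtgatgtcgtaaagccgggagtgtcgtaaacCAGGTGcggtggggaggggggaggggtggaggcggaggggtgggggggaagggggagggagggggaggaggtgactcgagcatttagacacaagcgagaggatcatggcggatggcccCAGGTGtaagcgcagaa
A match describes these letters only, and which ZEB1 start the cells used is not given by the table.

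The depth behind these levels is known only roughly, since the table holds no counts. From the lowest values of 468 single-exon genes, 1 FPKM in a transcript of 1 kb stood on about 43.1 fragments in dual-resistant cells, 47.4 in erlotinib-resistant cells and 68.6 in vehicle cells. The FPKM values summed to between 494817 and 596084 per library, and scaling the libraries to the same sum would move the median of all genes from 0.00 to 0.14 (log2, erlotinib-resistant over vehicle) and from -0.01 to 0.22 (dual-resistant over vehicle). Keratins and other markers of the line (KRT7, KRT8, KRT18, KRT19, EPCAM and EGFR) were all at 41.1 FPKM or more in every library, with summed levels of 2967 FPKM in the dual-resistant, 5892 in the erlotinib-resistant and 5031 in vehicle cells. The 12 markers of blood, endothelial and stromal cells summed to 3.53, 1.76 and 4.85 FPKM in the dual-resistant, erlotinib-resistant and vehicle libraries. Of these 12, CD3E, HBB and PDGFRA were listed at 0 throughout. Above 1 FPKM were LUM (1.52) and PDGFRB (1.01) in dual-resistant cells and CD14 (4.10) in vehicle cells. Whether the lower sum of the line's markers in dual-resistant cells bears on the members was not tested.

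**Figure D1:**
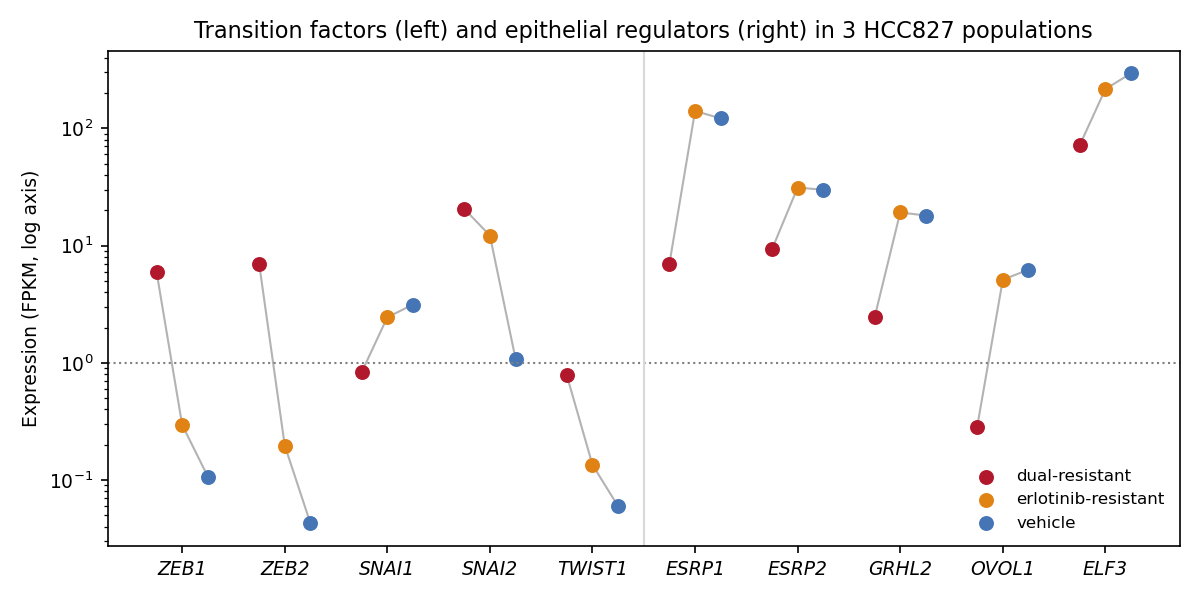
Expression of the 10 regulators in FPKM (log axis) in the dual-resistant, erlotinib-resistant and vehicle libraries, 1 point per library, with a dotted line at 1 FPKM. ZEB1 and ZEB2 lie above the line in dual-resistant cells only, and all 5 epithelial regulators are lowest there.

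Among the inducers, ZEB1 (chromosome 10, 31607424 to 31818742 on GRCh37) stood at 5.98 FPKM in dual-resistant cells, 0.295 in erlotinib-resistant cells and 0.107 in vehicle cells. With the depth estimate and its longest annotated transcript of 6.27 kb, these values rest on about 1614, 88 and 46 fragments. Against erlotinib-resistant cells the log2 difference of dual-resistant cells was 2.43 (5.38-fold on FPKM + 1, and 20.2-fold as a plain ratio). Its paralogue ZEB2 (chromosome 2, 145141942 to 145277958) stood at 7.03 FPKM in dual-resistant cells, 0.197 in erlotinib-resistant cells and 0.0429 in vehicle cells, on about 2902, 90 and 28 fragments. The log2 difference was 2.75 against erlotinib-resistant cells and 2.94 against vehicle. Both ZEB genes reached 1 FPKM in dual-resistant cells alone, so the filter of at least 1 FPKM in at least 1 library fixed their direction. Even so, their highest levels were modest, above 35.2% (ZEB1) and 39.2% (ZEB2) of all compared genes in that library.

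Other transcripts overlap ZEB1 and ZEB2, and whether the libraries keep strand is not given in the sources used here, so their reads cannot be told apart. ZEB1-AS1, the antisense RNA at the ZEB1 start, was listed at 0 in dual-resistant cells, against 2.24 FPKM in the erlotinib-resistant and 1.20 FPKM in vehicle cells. An unnamed transcript there (uc021pov in the table) stood at 2.99 FPKM in the dual-resistant, 8.14 in the erlotinib-resistant and 3.89 in vehicle cells. Both were lowest in dual-resistant cells, in which ZEB1 was highest. ZEB2-AS1 and 2 further transcripts within ZEB2 were listed at 0 in all 3 libraries.

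SNAI2 (Slug; chromosome 8, 49830239 to 49833999) took another course. It stood at 20.6 FPKM in dual-resistant cells, 12.2 in erlotinib-resistant cells and 1.08 in vehicle cells, on about 2152, 1401 and 180 fragments. Its log2 difference was 2.66 in erlotinib-resistant cells against vehicle and 0.71 in the dual-resistant against erlotinib-resistant cells. The 2.66 is 78.9% of the log2 difference between the dual-resistant and vehicle libraries (3.37). This share is of log2 values of FPKM + 1, not of FPKM. SNAI2 was the most abundant of the 5 inducers in the dual-resistant and erlotinib-resistant libraries.

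SNAI1 (Snail; chromosome 20, 48599513 to 48605420) stood at 0.832 FPKM in dual-resistant cells, 2.45 in erlotinib-resistant cells and 3.14 in vehicle cells. It was the most abundant of the 5 inducers among the members in vehicle cells and was lower, not higher, in dual-resistant cells. Its log2 difference from vehicle was -1.18, past the limit, and from erlotinib-resistant cells -0.91, within it (-1.45 with a pseudocount of 0.1 FPKM). TWIST1 (chromosome 7, 19155091 to 19157295) stood at 0.780, 0.135 and 0.0598 FPKM in the dual-resistant, erlotinib-resistant and vehicle libraries. It did not reach 1 FPKM in any library and was left out of the counts of calls. These values rest on about 56, 11 and 7 fragments.

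ESRP1 (chromosome 8, 95653364 to 95719694) showed the largest difference of the 10 genes on the FPKM + 1 scale. With a pseudocount of 0.1 FPKM, ZEB2 differed more between the resistant libraries (4.58, against -4.31 for ESRP1), and over vehicle ZEB2, ZEB1 and SNAI2 all did (5.64, 4.87 and 4.13, against -4.10). It stood at 7.01 FPKM in dual-resistant cells, 141 in erlotinib-resistant cells and 122 in vehicle cells. In erlotinib-resistant cells it was above 96.2% of compared genes and in dual-resistant cells above 39.1%. The log2 difference between these libraries was -4.14 (17.7-fold lower). ESRP2 (chromosome 16, 68262450 to 68270136) stood at 9.31 FPKM in dual-resistant cells, 31.3 in erlotinib-resistant cells and 29.9 in vehicle cells, with a log2 difference of -1.65 in the dual-resistant against erlotinib-resistant cells. The ESRP2 row overlaps the end of NFATC3, which stood at 5.11, 10.5 and 6.05 FPKM in the dual-resistant, erlotinib-resistant and vehicle libraries. Both splicing regulators remained above 7 FPKM in dual-resistant cells.

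GRHL2 (chromosome 8, 102504668 to 102681952) stood at 2.44 FPKM in dual-resistant cells, 19.2 in erlotinib-resistant cells and 18.0 in vehicle cells. Its log2 difference from erlotinib-resistant cells was -2.55. OVOL1 (chromosome 11, 65554505 to 65564690) stood at 0.284 FPKM in dual-resistant cells, 5.12 in erlotinib-resistant cells and 6.23 in vehicle cells. It was the lowest of the 10 genes in dual-resistant cells, on about 37 fragments. Its log2 difference from erlotinib-resistant cells was -2.25 on FPKM + 1, and as a plain ratio it was 17.98-fold lower, close to the 20.1-fold of ESRP1. ELF3 (chromosome 1, 201977073 to 201986315) stood at 71.8 FPKM in dual-resistant cells, 216 in erlotinib-resistant cells and 295 in vehicle cells, with a log2 difference of -1.57 between the resistant libraries. It remained the most abundant of the 10 in every library, still above 91.7% of compared genes in dual-resistant cells.

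Counted over the 9 members that passed the filter, 1 was higher and none lower in erlotinib-resistant cells against vehicle, where 3.81% of all 13381 compared genes were higher and 6.03% lower (9.84% in either direction). In the dual-resistant against erlotinib-resistant cells 5 were lower and 2 higher, where 7.22% of 13385 genes were lower and 10.1% higher (17.4% in either direction). In dual-resistant cells against vehicle 6 were lower and 3 higher, so that all 9 lay past the limit, where 10.4% of 13378 genes were lower and 11.0% higher (21.4% in either direction). The members were chosen with earlier results of these data known, so these counts are not independent support. The 2 ZEB genes are counted as higher only because of the library in which they are high. The 3 comparisons share libraries and are not independent. All 5 epithelial regulators and both ZEB genes were within the limit in the first comparison at a pseudocount of 1 FPKM, but with 0.1 FPKM ZEB2 passed it, at 1.06, on about 90 against 28 fragments.

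**Figure D2:**
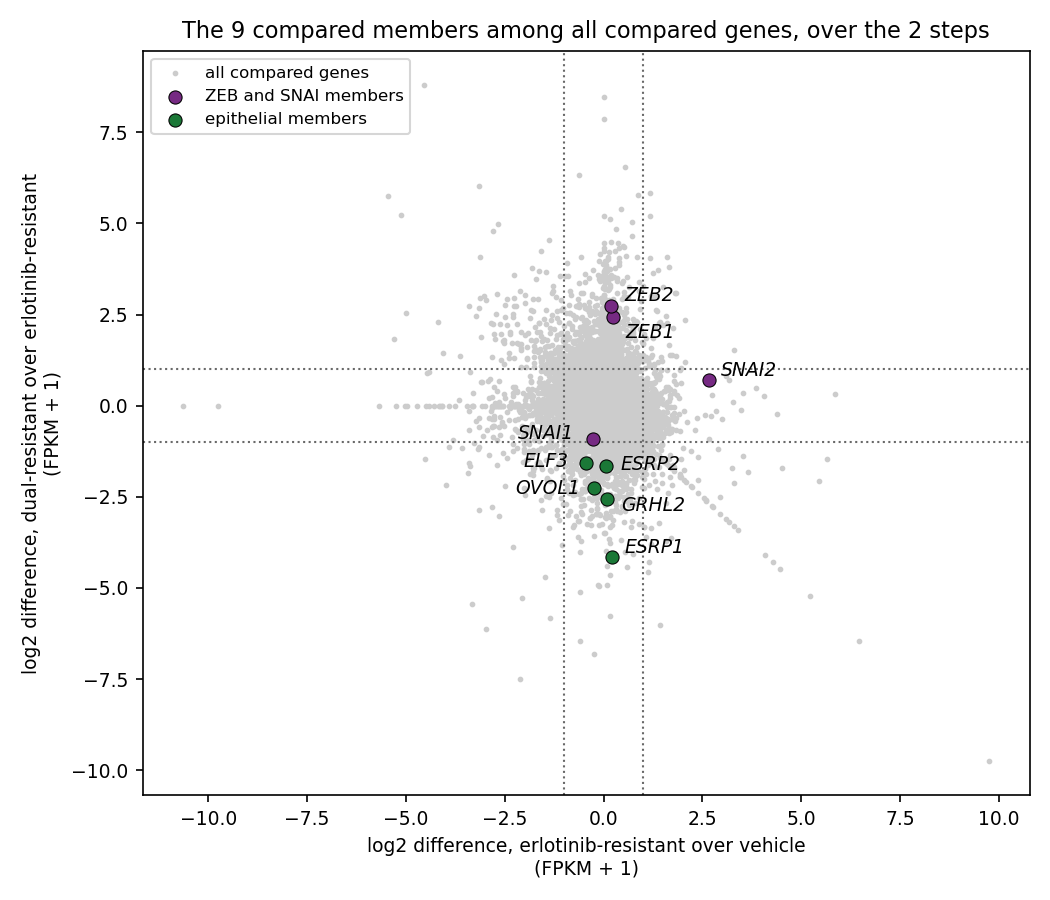
Log2 differences of FPKM + 1 for erlotinib-resistant cells over vehicle (horizontal) and the dual-resistant over erlotinib-resistant cells (vertical), with all compared genes in grey, the 9 compared members in colour and dotted lines at differences of 1. Both axes use the same erlotinib-resistant cells. SNAI2 alone of the members lies past the limit on the horizontal axis, and ESRP1 lies lowest of them on the vertical axis.

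The order of related members within a library differed between libraries, which scaling between libraries does not touch. In dual-resistant cells, however, the ESRP pair and the ZEB pair each lay within 2-fold of equal levels, as the ZEB pair also did in erlotinib-resistant cells. ESRP1 stood at 0.753 times the level of ESRP2 in dual-resistant cells, against 4.50 times in erlotinib-resistant cells and 4.07 times in vehicle cells. SNAI2 stood at 24.7 times the level of SNAI1 in dual-resistant cells, 4.97 times in erlotinib-resistant cells and 0.344 times in vehicle cells. ZEB2 stood at 1.18 times ZEB1 in dual-resistant cells, 0.667 times in erlotinib-resistant cells and 0.400 times in vehicle cells. The last 2 ratios rest on at most 90 fragments for each gene. Summed over the 5 inducers, the level was 35.2 FPKM in the dual-resistant, 15.3 in the erlotinib-resistant and 4.43 in vehicle cells. Over the 5 epithelial regulators it was 90.9, 412 and 471 FPKM in the same libraries, and ELF3 alone supplied 71.8, 216 and 295 FPKM of it.

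**Figure D3:**
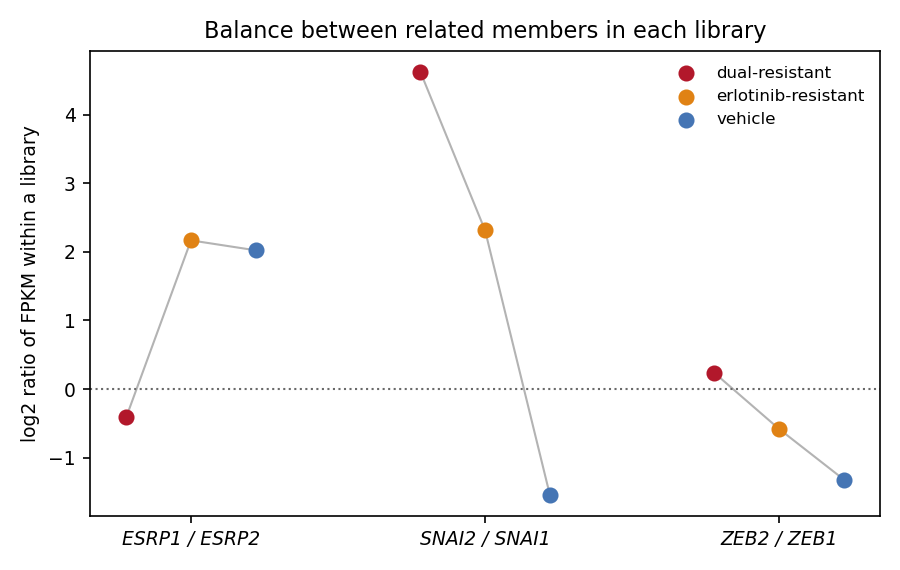
Log2 ratio of FPKM between related genes within each library, for ESRP1 over ESRP2, SNAI2 over SNAI1 and ZEB2 over ZEB1, 1 point per library; the dotted line marks equal levels. The ESRP ratio is below the line in dual-resistant cells only, and the SNAI ratio is below it in vehicle cells only.

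Of the 10 genes, SNAI2, ESRP1 and GRHL2 lie on chromosome 8, and their neighbours were compared too. Of the 10 compared genes nearest to GRHL2, 5 on each side, none was past the limit in any of the 3 comparisons. The neighbours of ESRP1 had a median log2 difference of -0.12 in the dual-resistant against erlotinib-resistant cells, with 2 higher and 1 lower of 10, where 17.4% of all genes were past the limit. The neighbours of SNAI2 had a median of 0.02 in erlotinib-resistant cells against vehicle, with 1 higher and 1 lower of 10, where 9.84% of all genes were past the limit. For the other members compared, the neighbours' median between the resistant libraries lay between -0.68 (ESRP2) and 0.27 (ELF3).

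Most other epithelial factors compared were lower in dual-resistant cells too. Of 13 other epithelial transcription factors, 11 were compared. In the dual-resistant against erlotinib-resistant cells 7 were lower and none was higher (median -1.23, against -0.03 over all compared genes). Over all genes 7.22% were lower and 10.1% higher. EHF, an ETS factor related to ELF3, stood at 2.61 FPKM in the dual-resistant and 23.0 in erlotinib-resistant cells, and SPDEF, another ETS factor, at 0.202 and 5.06. OVOL2, the paralogue of OVOL1, stood at 1.35 and 8.75 FPKM in these libraries, and GRHL1, a paralogue of GRHL2, at 2.17 and 6.40. GRHL3, of the same family, went the other way, at 0.455 and 0.137 FPKM, but was below 1 FPKM throughout and not compared. KLF4, a zinc-finger factor of differentiated epithelia, stood at 4.55 FPKM in the dual-resistant and 31.3 in erlotinib-resistant cells. TFAP2A was at 20.97 and 20.4 FPKM, and KLF5 and FOXA1 differed by -0.65 and -0.94, within the limit. In erlotinib-resistant cells against vehicle, 2 of the 11 were lower, TP63 at 1.45 against 8.83 FPKM and FOXA2 at 1.07 against 3.88. There 6.03% of all genes were lower. In dual-resistant cells against vehicle 9 were lower and none was higher (median -1.65), where 10.4% of all genes were lower and 11.0% higher.

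The other inducers compared did not follow the ZEB genes as a set. Of 16, 9 were compared. Between the dual-resistant and erlotinib-resistant libraries 1 was higher and 1 lower, where 10.1% of all genes were higher and 7.22% lower. The median was -0.06 (0.03 with the libraries scaled to the same sum). Each of these 9 reached 1 FPKM in at least 2 libraries, whereas the ZEB genes passed the filter through dual-resistant cells alone. Of those left out, all below 1 FPKM, KLF8, TCF4 and PRRX1 were highest in dual-resistant cells and SNAI3, FOXC2, GSC and LEF1 were not. RUNX2, a runt-domain factor, stood at 14.3 FPKM in the dual-resistant and 3.27 in erlotinib-resistant cells, and FOXQ1, a forkhead factor, at 0.583 and 4.53. TWIST2, the paralogue of TWIST1, stood at 9.76, 7.35 and 9.36 FPKM in the dual-resistant, erlotinib-resistant and vehicle libraries, above TWIST1 in each. In erlotinib-resistant cells against vehicle FOSL1, an AP-1 subunit, was higher, at 146 against 67.3 FPKM, and PRRX2, a homeobox factor, lower, at 1.50 against 8.99. In dual-resistant cells against vehicle 1 of the 9 was higher and 2 lower (median 0.05). Over all genes 11.0% were higher and 10.4% lower there. Corepressors that ZEB and SNAI factors recruit, such as CTBP1, CTBP2, HDAC1 and KDM1A, lay within the limit in all 3 comparisons for 9 of 9 compared. Their medians were 0.06, 0.03 and 0.21 in the order of the 3 comparisons above.

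**Figure D4:**
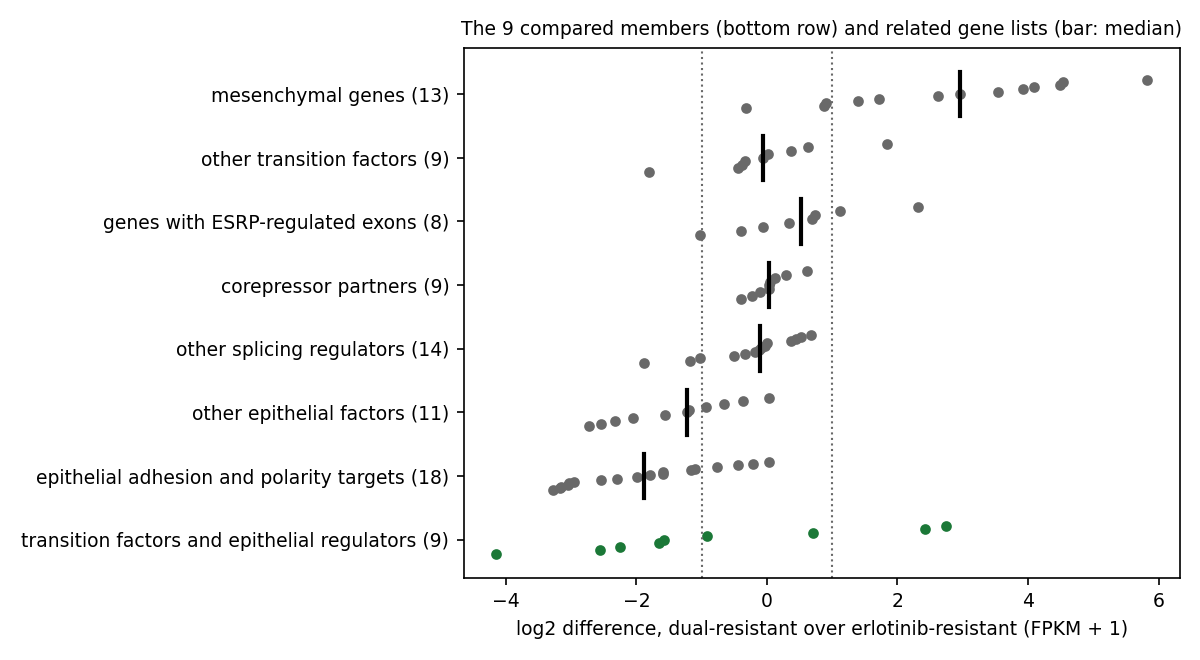
Log2 differences of FPKM + 1 in the dual-resistant over erlotinib-resistant cells, 1 point per compared gene, for 7 related gene lists and for the members in the bottom row; bars are list medians, dotted lines mark differences of 1 and numbers in brackets count the genes. The 2 epithelial lists lie to the left, the mesenchymal list to the right, and the corepressors stay within the limit.

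Of 17 other splicing regulators, 14 were compared, and 3 were lower and none higher in the dual-resistant against erlotinib-resistant cells, with a median of -0.10, where 7.22% of all genes were lower and 10.1% higher. MBNL3, a muscleblind-family regulator, stood at 0.417 against 4.21 FPKM, CELF2 at 0.956 against 3.44 and RBM47, an RNA-binding protein of epithelia, at 26.4 against 54.8. RBM47 lay just past the limit (-1.02), and with the libraries scaled to the same sum 2 of the 14 were lower. RBFOX2, a splicing factor that favours mesenchymal exons, stood at 26.0, 18.8 and 11.6 FPKM in the dual-resistant, erlotinib-resistant and vehicle libraries. It alone was higher in dual-resistant cells against vehicle (1.10), with MBNL3 alone lower and a median of 0.02, and with the libraries scaled to the same sum 3 were higher. None of the 14 was past the limit in erlotinib-resistant cells against vehicle (median 0.35). QKI had missing cells in 2 libraries and was not compared.

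The table has 1 value per gene, so splice forms cannot be seen, but the host genes of known ESRP exons were measured. Of 8, 2 were higher and 1 lower in the dual-resistant against erlotinib-resistant cells (median 0.52), where 10.1% of all genes were higher and 7.22% lower. With so few genes, these counts are not read as a trait of the list. CD44, a hyaluronan receptor, stood at 211 FPKM in the dual-resistant, 41.5 in the erlotinib-resistant and 23.0 in vehicle cells, and ENAH, an actin regulator, at 39.8, 17.8 and 12.5. CTNND1, which encodes p120-catenin, was lower, at 67.3 against 138 FPKM, a call lost with the libraries scaled to the same sum. FGFR2 stood at 0.0972, 0.140 and 1.35 FPKM in the dual-resistant, erlotinib-resistant and vehicle libraries, reaching 1 FPKM in the last alone. It was the 1 gene of 8 past the limit in erlotinib-resistant cells against vehicle (median 0.47), where 9.84% of all genes were. This call was also lost with that scaling. In dual-resistant cells against vehicle 2 were higher, 3 with that scaling, and 1 lower (median 0.54). Over all genes 11.0% were higher and 10.4% lower there.

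Epithelial adhesion and polarity genes, listed by name as targets of ZEB, SNAI or GRHL2 factors, were mostly lower in dual-resistant cells. Whether these factors act on them in these cells was not tested. Of 18 epithelial adhesion and polarity genes, all compared, 14 were lower by the limit than in erlotinib-resistant cells and none was higher (median -1.89). Over all genes 7.22% were lower and 10.1% higher. CDH1 stood at 22.8 FPKM in the dual-resistant, 194 in the erlotinib-resistant and 172 in vehicle cells. MAL2, a transcytosis protein, stood at 18.3 FPKM in the dual-resistant and 170 in erlotinib-resistant cells, and AP1M2, CLDN7 and EPCAM, which is also among the markers of the line above, were 8.23-fold to 9.68-fold lower. DSP, LLGL2 and OCLN were within the limit. Against vehicle 14 were likewise lower and none was higher (median -2.23), where 10.4% of all genes were lower and 11.0% higher. In erlotinib-resistant cells against vehicle 1 was lower and none higher (median -0.09, and 0.08 with the libraries scaled to the same sum). There 6.03% of all genes were lower and 3.81% higher. RAB25, a trafficking GTPase, was 11.3-fold lower in dual-resistant cells than in vehicle.

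Of 17 mesenchymal genes, 13 were compared. In the dual-resistant against erlotinib-resistant cells 10.1% of all genes were higher and 7.22% lower. Of the 13, 10 were higher and none lower there, with a median of 2.96. These include ACTA2, which was listed at 0 in erlotinib-resistant cells. They also include FN1 and SPARC, which had been lower in erlotinib-resistant cells than in vehicle. FN1, SPARC and ACTA2 stood at 176, 3.27 and 1.64 FPKM in dual-resistant cells, against 101, 4.92 and 1.10 in vehicle cells. CDH2, which encodes N-cadherin, stood at 11.5 FPKM in the dual-resistant, 0.0776 in the erlotinib-resistant and 0.00759 in vehicle cells. VIM, which encodes the intermediate filament protein vimentin, stood at 414 FPKM in the dual-resistant, 23.3 in the erlotinib-resistant and 7.04 in vehicle cells. CDH2, COL5A1 and LOX reached 1 FPKM in dual-resistant cells alone, so their direction was fixed by the filter. In erlotinib-resistant cells against vehicle, 2 of the 13 were higher, VIM among them, and 4 were lower. The lower genes include FN1, at 27.9 against 101 FPKM, and SPARC, at 0.299 against 4.92. The median was -0.48, and 3 were lower with the libraries scaled to the same sum. In dual-resistant cells against vehicle 7 were higher, 8 with that scaling, and S100A4 alone lower (median 2.90). Over all genes 3.81% were higher and 6.03% lower in erlotinib-resistant cells against vehicle. In dual-resistant cells against vehicle 11.0% were higher and 10.4% lower.

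The genes nearest to ZEB1 and ESRP1 in pattern were taken by the distance between pairs of log2 differences (erlotinib-resistant over vehicle, dual-resistant over erlotinib-resistant) among 12962 others listed at 0 in no library. These differences are of FPKM + 1, which shrinks those of low genes such as ZEB1, so nearness on this scale need not hold for plain ratios. For ZEB1 the nearest 5 were PAPSS2, FGF5, GSTA2, HLX and ANK2, at distances of 0.06 to 0.11, and ZEB2 stood in place 47, at 0.32. PAPSS2, the nearest, was far above ZEB1 in level, at 58.1 FPKM in the dual-resistant, 9.64 in the erlotinib-resistant and 7.89 in vehicle cells. FGF5, a fibroblast growth factor, stood at 4.88 FPKM in the dual-resistant, 0.136 in the erlotinib-resistant and 0.0184 in vehicle cells. For ESRP1 they were SCEL, UPP1, KRTCAP3, DUSP5 and APOBEC1, at 0.37 to 0.81, and GRHL2 stood in place 67, at 1.60. SCEL, which encodes the cornified envelope protein sciellin, stood at 2.07, 48.5 and 32.7 FPKM in the same order of libraries. These likenesses rest on 3 libraries and carry no test.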

How the data were processed

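The 3 RNA sequencing libraries, 1 per group, gave a level for each gene. The authors deposited 1 table of FPKM, with 31402 rows and 1 column per library. Per the submitters' processing notes the tools were TopHat 1.3 and Cufflinks 1.3, on GRCh37; gene set, settings and strandedness: not given in the sources used here. FPKM cannot be turned into counts, so no count model was used. Cufflinks estimates can fail, so a value of 0 is given as listed at 0, without a fold.

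Rows sharing a symbol were summed with pandas 2.3.3 in Python 3.11.15. Log2 differences of FPKM + 1 were taken for 13425 genes that reached 1 FPKM in any library, less those with a missing cell, which understates differences of low genes. A limit of 1 (log2) set the calls. The procedure was tested on simulated tables of genes well above the filter, changed by more than the limit. That test does not cover members at low levels. The worth of a fragment was percentile 1 of FPKM times length in single-exon genes of 1 to 5 kb (GENCODE 29, matched by symbol). The table's start positions were read as counting from 0 and are printed from 1. The members and lists were chosen with earlier results of these data known. Named were all members, up to 4 members per list with the largest differences, relatives of members, genes that bear on a count, and for ZEB1 and ESRP1 the 5 genes nearest in pattern; relatives, CDH1, CDH2 and others outside the rule were chosen after their values were seen. Alternatives were another pseudocount, 2 scalings, 2 filters, a limit of 2, the highest row per symbol and leaving out genes listed at 0.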

Additional observations from a re-analysis of the deposited data

How the results depend on the processing

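No paired analysis was possible because each group has 1 library, and no library could be left out. With the other pseudocount and both scalings, the log2 differences of the members kept their side of the limit in 86 of 90 recomputed values, and 4 passed the limit only with a pseudocount of 0.1 FPKM. Keeping the highest row of a symbol or leaving out genes listed at 0 could not move a member. These were ZEB2 in the erlotinib-resistant library over vehicle (1.06), SNAI1 in the dual-resistant over the erlotinib-resistant library (-1.45), and TWIST1 in the dual-resistant over the erlotinib-resistant library (1.91) and over vehicle (2.46). A smaller pseudocount weighs low values more, by its construction. That pseudocount gave 2 members and 856 genes higher in the erlotinib-resistant library over vehicle. A limit of 2 gave fewer calls, by its construction. It left 58 genes higher and 213 lower in the erlotinib-resistant library over vehicle, 391 and 251 in the dual-resistant over the erlotinib-resistant library, and 424 and 468 in the dual-resistant library over vehicle. Of the members it left 3 lower in the dual-resistant over the erlotinib-resistant library and 4 lower over vehicle. Scaling to the same sum moved the share of higher calls over all genes to 53.7% from 38.7% (erlotinib-resistant over vehicle) and to 66.1% from 51.3% (dual-resistant over vehicle), and changed no call of a member. Depth limits TWIST1 in every library, OVOL1 and SNAI1 in the dual-resistant library, and the ZEB genes in the erlotinib-resistant and vehicle libraries, all at 90 or fewer estimated fragments.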
